A study of Mus musculus with 54 samples.

Results

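Axonemal dynein heavy chains are the motor subunits that drive the beat of sperm tails and motile cilia, and 9 of their genes were followed here: Dnah17, Dnah5, Dnah9, Dnah2, Dnah10, Dnah1, Dnah3, Dnah6 and Dnah12. They were chosen by gene symbol, and all 9 were found among the 26264 rows of both the testis and the ovary count table. Each heavy chain holds an ATPase ring that walks on the neighbouring microtubule doublet. Outer arms set beat frequency and inner arms shape the bend, and outer arms differ by cell type. Dnah17 is the beta chain of the sperm outer arm, while Dnah9 (beta) and Dnah5 (gamma) form outer arms of motile cilia, such as those of the oviduct. Dnah2 and Dnah10 pair in the double-headed inner arm, and Dnah1, Dnah3, Dnah6 and Dnah12 are single-headed inner arm chains.

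RNA of adult mouse testis and ovary was sequenced in 18 groups of 3 libraries (A, B and C), 27 libraries per tissue. The F1 (first generation) was exposed through drinking water, given to the dam from 8.5 days post-coitum and then to the young. Its additives were the painkillers ibuprofen (with its metabolite 2-hydroxyibuprofen) and diclofenac, and the contraceptive oestrogen EE2. At dose 1 the water contained 11.3 ng/L ibuprofen, 90 ng/L 2-hydroxyibuprofen, 22.5 ng/L diclofenac and 2.25 ng/L EE2. At dose 2 it contained 113 ng/L ibuprofen, 225 ng/L 2-hydroxyibuprofen, 112 ng/L diclofenac and 45 ng/L EE2. F1 controls drank 0.001% ethanol, and the protocol gives 10 weeks as the age of males and 8 weeks as that of females at sampling. These ages were assigned to F1 only. No age was assigned to the F2 libraries, and no ethanol content to the dosed F1. The second generation (F2), labelled with no treatment, had a mother at dose 1, a mother at dose 2, a father at dose 1, a father at dose 2, both parents at dose 2, or control parents. Strain is not given in the sources used here. The labels do not tie replicate letters to litters or animals, and p-values therefore reflect only how far these samples spread, which may be technical. Library totals were 31.8 to 46.4 M counts in testis and 35.6 to 102 M in ovary.

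The tissue labels were checked by marker genes. Elongating spermatid markers summed to 18940 to 32120 CPM (counts scaled to library size) in testis libraries, against 77.2 to 94.7 CPM in ovary libraries. Oocyte markers summed to 15.8 to 24.5 CPM in testis libraries, against 329 to 789 CPM in ovary libraries. Libraries A and B of ovary F1 dose 2 stood apart, with Ovgp1, an oviduct secretory glycoprotein, at 1013 and 299 CPM, so results that rest on them are given with and without them.

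Promoter windows from RefSeq (GRCm38.p6, 250 bases before to 50 after the start) were found for 8 of the 9 chains. They are shown for 5 chains that were high in those ovary libraries (Dnah6, Dnah5, Dnah12, Dnah9 and Dnah10). They are also shown for the 2 that were not (Dnah17 and Dnah2). The window of Dnah1, a chain also high there, is not shown. Capitals mark GTTGCNA, searched on both strands, a half-site of the X-box that RFX factors bind.
Dnah6, chr6:73221582-73221881, minus strand: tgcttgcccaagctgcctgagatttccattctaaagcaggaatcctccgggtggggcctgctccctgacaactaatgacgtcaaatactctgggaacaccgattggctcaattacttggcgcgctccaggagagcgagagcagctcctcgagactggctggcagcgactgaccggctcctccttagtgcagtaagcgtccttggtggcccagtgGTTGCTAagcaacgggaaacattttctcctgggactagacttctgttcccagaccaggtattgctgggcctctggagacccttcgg
Dnah5, chr15:28203516-28203815, plus strand: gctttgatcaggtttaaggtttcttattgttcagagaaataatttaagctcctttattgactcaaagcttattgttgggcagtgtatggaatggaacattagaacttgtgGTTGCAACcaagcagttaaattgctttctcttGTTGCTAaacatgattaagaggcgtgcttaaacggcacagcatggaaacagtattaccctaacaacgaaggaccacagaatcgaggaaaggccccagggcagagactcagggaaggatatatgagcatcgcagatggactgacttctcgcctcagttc
Dnah12, chr14:26691304-26691603, plus strand: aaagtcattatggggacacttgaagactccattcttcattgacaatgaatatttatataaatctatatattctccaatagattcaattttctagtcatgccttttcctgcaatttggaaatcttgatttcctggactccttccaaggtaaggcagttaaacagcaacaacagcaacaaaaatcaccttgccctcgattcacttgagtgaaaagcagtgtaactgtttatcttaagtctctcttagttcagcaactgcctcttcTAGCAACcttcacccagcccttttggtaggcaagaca
Dnah9, chr11:66168502-66168801, minus strand: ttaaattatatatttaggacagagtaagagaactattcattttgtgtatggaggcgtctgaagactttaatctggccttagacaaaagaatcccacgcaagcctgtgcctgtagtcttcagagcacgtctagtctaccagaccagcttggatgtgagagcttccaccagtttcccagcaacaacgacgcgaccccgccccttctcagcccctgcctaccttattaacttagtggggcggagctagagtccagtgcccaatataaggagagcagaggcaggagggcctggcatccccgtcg
Dnah10, chr5:124724835-124725134, plus strand: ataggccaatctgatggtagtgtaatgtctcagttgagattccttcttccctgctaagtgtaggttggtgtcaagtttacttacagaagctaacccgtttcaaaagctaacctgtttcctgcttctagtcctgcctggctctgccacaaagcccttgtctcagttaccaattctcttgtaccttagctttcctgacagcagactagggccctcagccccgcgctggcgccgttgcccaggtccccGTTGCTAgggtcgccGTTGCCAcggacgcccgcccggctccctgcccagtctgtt
Dnah17, chr11:118129170-118129469, minus strand: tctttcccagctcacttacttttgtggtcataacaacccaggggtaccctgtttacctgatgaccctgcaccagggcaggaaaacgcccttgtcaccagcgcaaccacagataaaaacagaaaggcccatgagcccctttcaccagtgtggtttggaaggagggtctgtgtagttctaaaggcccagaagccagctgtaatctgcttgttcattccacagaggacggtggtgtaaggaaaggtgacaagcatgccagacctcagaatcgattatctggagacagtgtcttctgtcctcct
Dnah2, chr11:69549059-69549358, minus strand: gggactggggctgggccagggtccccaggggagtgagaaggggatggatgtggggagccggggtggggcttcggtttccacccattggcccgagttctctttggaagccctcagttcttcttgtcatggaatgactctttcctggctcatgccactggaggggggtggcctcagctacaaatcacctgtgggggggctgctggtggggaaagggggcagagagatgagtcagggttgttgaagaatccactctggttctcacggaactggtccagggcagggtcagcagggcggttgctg
The motif was present in 5 of the 8 windows (Dnah6, Dnah5, Dnah12, Dnah10 and Dnah1), absent from those of Dnah9, Dnah17 and Dnah2, and present in 10.4% of 32851 promoter windows of this length. In Dnah5, 2 of its 3 matches overlap. The start used for Dnah5 lies 48912 bases inside the annotated gene. That for Dnah1 lies 1995 bases inside, that for Dnah17 1500 bases and that for Dnah6 596 bases. A match is a description of the letters only.

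The testis carried far more of these transcripts than the ovary. The 9 chains together had 109 to 192 CPM per kb of coding length in testis libraries (median 163), against 2.24 to 20.3 in ovary libraries (median 4.66) and 2.24 to 7.30 in the 25 ovary libraries other than F1 dose 2 A and B. In control animals all 9 chains were higher in testis, in F1 and again in F2, and in each the 3 testis libraries lay above the 3 ovary libraries, as they did for 37.3% of genes in F1 and 38.0% in F2. The background is wide, since 85.4% of 20044 genes in F1 controls and 85.1% in F2 controls passed the same edgeR test in either direction. In bulk tissue, fewer cells of a type and less RNA per cell cannot be told apart, and tissue, sex and count table cannot be told apart either.

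**Figure D1:**
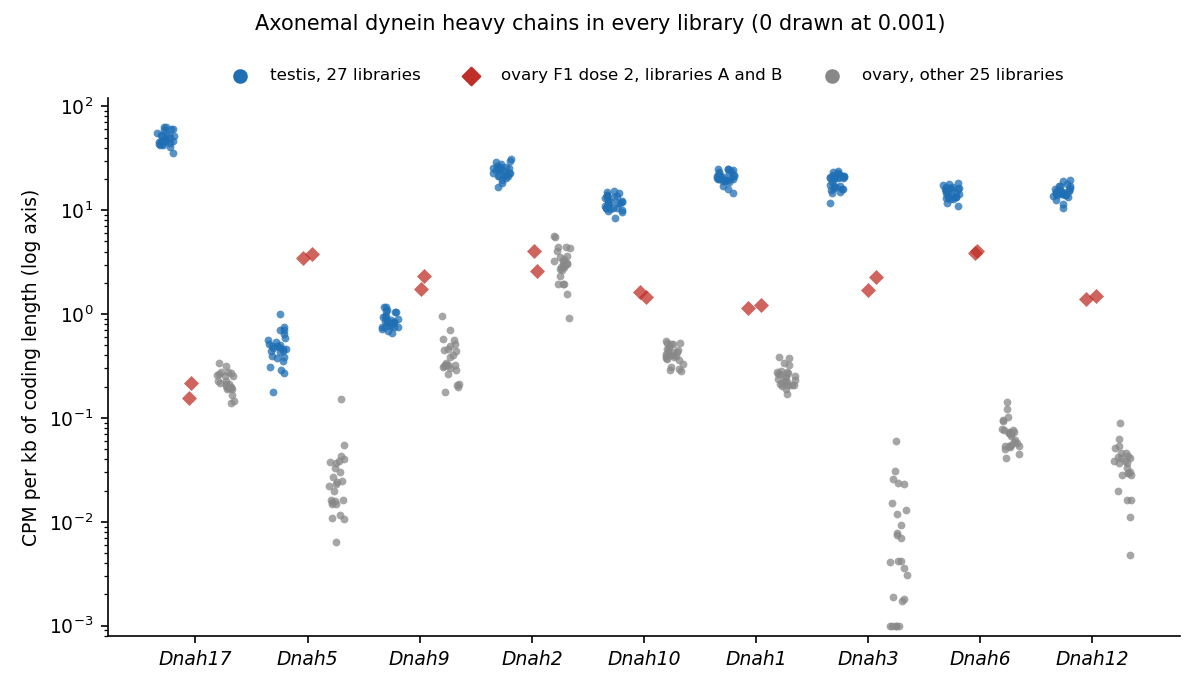
CPM per kb of coding length (log axis) of each chain in all 54 libraries: testis (27), ovary F1 dose 2 A and B (2 diamonds), and the other 25 ovary libraries, with 0 drawn at 0.001. Dnah17 is the highest chain in testis, Dnah2 in the other 25 ovary libraries, and the diamonds stand far above the other ovary libraries for Dnah3, Dnah5, Dnah6 and Dnah12.

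Dnah17 was the leading chain in testis. It had 626, 623 and 581 CPM in F1 control testes, against 1.95, 3.05 and 4.53 CPM in F1 control ovaries, and the tissues did not overlap. The log2 fold change of testis over ovary was 8.13 ± 0.31 (SE, n = 3 each; edgeR adjusted p = 7.795e-11), and 8.17 ± 0.31 in F2 controls (adjusted p = 7.505e-11). Over all 27 testis libraries it ranged from 474 to 846 CPM and supplied a median of 31.8% of the chains' summed CPM per kb. Dnah17 overlaps Pgs1, which lies on the opposite strand, so reads in the overlap are uncertain where counting ignores strand. Pgs1 itself ranged from 48.8 to 80.8 CPM in testis and from 51.0 to 82.9 CPM in ovary, where Dnah17 stayed at 1.88 to 4.53 CPM.

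The outer arm chains of motile cilia were the scarcest in testis. Dnah9 had 12.2, 11.6 and 10.2 CPM in F1 control testes, against 2.77, 5.43 and 9.35 CPM in F1 control ovaries. Its tissues lay close together without overlapping, and its log2 fold change of 1.499 ± 0.344 (adjusted p = 0.001273) was the smallest of the 9. Dnah5 had 6.76, 4.30 and 10.5 CPM in F1 control testes, against 0.373, 0.768 and 0.527 CPM in F1 control ovaries. The tissues did not overlap (log2 4.24 ± 0.59, adjusted p = 1.987e-05), although both levels were low. Per kb, the ratio of Dnah17 to Dnah9 had a median of 55.5 in testis libraries (lowest 39.4) and of 0.603 in ovary libraries (highest 1.2), so the 2 outer arm beta chains stood in different proportion in the tissues and no library of one tissue reached the other's range.

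The double-headed inner arm pair was higher in testis too. Dnah2 had 289, 299 and 259 CPM in F1 control testes, against 25.9, 47.8 and 40.3 CPM in F1 control ovaries (log2 3.44 ± 0.25, adjusted p = 3.468e-08). It was the chain with the most ovarian transcript, and every testis value lay above every ovary value. Dnah10 had 150, 163 and 144 CPM in F1 control testes, against 3.95, 5.56 and 7.29 CPM in F1 control ovaries (log2 5.31 ± 0.22, adjusted p = 1.485e-10). The per-kb ratio of Dnah2 to Dnah10 spanned 1.74 to 2.30 in testis and 1.59 to 11.3 in ovary, so the ranges overlapped.

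Of the 9 chains, the single-headed Dnah3 and Dnah12 gave the widest tissue gaps. Dnah3 had 205, 215 and 183 CPM in F1 control testes, against 0.373, 0.318 and 0.288 CPM in F1 control ovaries, where it rested on 17, 12 and 12 counts. Its log2 fold change was 9.79 ± 0.42 in F1 (adjusted p = 2.513e-10) and 11.46 ± 0.46 in F2, where the ovaries of control parents held 16, 0 and 2 counts, so the F2 value depends on very few reads. Dnah12 followed with 8.95 ± 0.31 and 9.14 ± 0.31, Dnah6 with 7.92 ± 0.27 and 8.44 ± 0.27, and Dnah1 with 6.88 ± 0.18 and 7.14 ± 0.18, in F1 and F2, all past the threshold. Genes of the RefSeq table with predicted names overlap Dnah9, Dnah1, Dnah3, Dnah6 and Dnah12, and reads there are likewise uncertain.

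Per kb, the order in testis was Dnah17 (median 47.0 CPM per kb), Dnah2 (24.3), Dnah1 (21.1), Dnah3 (20.3), Dnah12 (14.9), Dnah6 (14.7), Dnah10 (11.8), Dnah9 (0.848) and Dnah5 (0.469). Ranges over the 27 libraries separated Dnah17 (lowest 35.2) from Dnah2 (highest 31.1) and Dnah10 (lowest 8.33) from Dnah9 (highest 1.18), and the other neighbours overlapped. Ovary, in the 25 libraries without F1 dose 2 A and B, had another order of shares. Dnah2 supplied a median of 67.9% of the chains' summed CPM per kb (range 41.0 to 77.9%). Dnah10, the next, supplied 8.77% (6.03 to 21.4%), so these neighbours were apart. Then came Dnah9 (8.04%), Dnah1 (5.24%), Dnah17 (4.91%), Dnah6 (1.47%), Dnah12 (0.760%), Dnah5 (0.528%) and Dnah3 (0.115%), and each of these overlapped its neighbour.

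**Figure D2:**
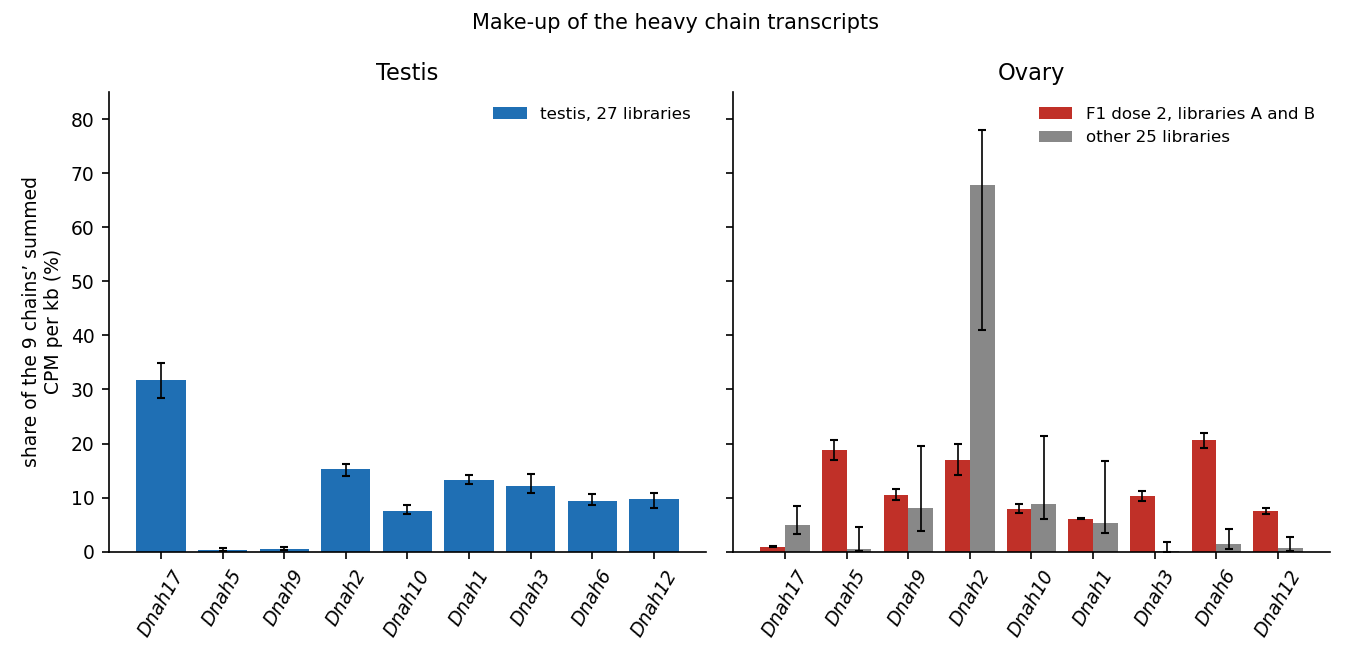
Share (%) of the 9 chains' summed CPM per kb taken by each chain; bars are medians and lines run from the lowest to the highest library, for testis (27 libraries), ovary F1 dose 2 A and B, and the other 25 ovary libraries. Dnah17 leads in testis at 31.8%, Dnah2 leads in the 25 ovary libraries at 67.9%, and Dnah6, Dnah5 and Dnah2 take the most in F1 dose 2 A and B.

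Related machinery was compared in the same way. In F2 controls, 43.2% of all genes tested were higher in testis. By list, 15 of 16 intermediate, light and docking chain genes were higher in testis and 0 were lower, 32 of 32 other axoneme genes were higher, and of 17 assembly factors 16 were higher and 1 lower. Of 10 tested multiciliated cell regulators 7 were higher and 1 lower, and of 14 tested multiciliated cell markers 13 were higher and 1 lower. The median log2 fold change of testis over ovary was 7.36 for the 16 intermediate, light and docking chain genes, 8.54 for the axoneme genes and 7.14 for the 9 chains, beside -0.01 over all genes tested. Both cytoplasmic dynein heavy chains were higher in testis as well, Dync1h1 by a log2 of 1.15 ± 0.19 and Dync2h1 by 3.37 ± 0.19 in F2.

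In the ovary, F1 dose 2 libraries A and B stood far above the other 25 libraries in Dnah5, Dnah6, Dnah3 and Dnah12. Dnah5 had 47.5, 52.4 and 0.220 CPM in ovary F1 dose 2 libraries A, B and C, against 0.373, 0.768 and 0.527 CPM in F1 controls. Libraries A and B lay far above every control and library C lay below them all, so the groups overlapped. Dnah6 had 48.6, 49.8 and 0.980 CPM at dose 2, against 0.878, 0.662 and 1.27 CPM in controls, with the same pattern of libraries A and B. Dnah3 had 27.9, 20.9 and 0.050 CPM at dose 2, against 0.373, 0.318 and 0.288 CPM in controls. Dnah12 had 16.7, 17.6 and 0.390 CPM at dose 2, against 0.549, 0.742 and 0.192 CPM in controls. In each of these chains 2 libraries of the dose were high and the other was within or below the controls.

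Other chains stood out less in the same libraries. Dnah9 had 31.6, 23.6 and 7.71 CPM at dose 2, against 2.77, 5.43 and 9.35 CPM in controls. Relative to the median of the other 25 ovary libraries, libraries A and B held 544-fold and 408-fold the Dnah3 level, 147-fold and 162-fold the Dnah5 level, 55.4-fold and 56.7-fold the Dnah6 level and 38.1-fold and 40.1-fold the Dnah12 level. The excess was 7.19-fold and 5.37-fold for Dnah9, 4.93-fold and 4.67-fold for Dnah1 and 3.58-fold and 4.0-fold for Dnah10. It was 1.34-fold and 0.854-fold for Dnah2, within the range of the other libraries, and 1.02-fold and 0.735-fold for Dnah17. The sperm-type outer arm chain and the main ovarian chain were thus at ordinary ovarian levels in libraries A and B. Of the chains' summed CPM per kb, libraries A and B drew 19.3% and 22.0% from Dnah6, 16.9% and 20.8% from Dnah5 and 20.0% and 14.1% from Dnah2, while library C drew 63.2% from Dnah2 like the other ovaries. The Dnah3 fold rests on a median of 0.0513 CPM, and 5 of the ovary libraries held 0 Dnah3 counts, which allows up to 3 counts in each.

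The group test did not call these chains. Its log2 fold change was 5.91 ± 1.46 for Dnah5 (edgeR adjusted p = 0.407, n = 3 each), 5.14 ± 1.16 for Dnah6, 5.63 ± 1.58 for Dnah3 and 4.55 ± 1.15 for Dnah12. Across the 9 chains 0 were called, beside 0% of 17168 genes. At an unadjusted p under 0.05 there were 7 chains, beside 12.0% of genes. DESeq2 called 5 chains (Dnah5, Dnah6, Dnah3, Dnah12 and Dnah1), beside 1.83% of genes. Without library C, which leaves only the 2 high libraries at the dose, 6 chains were called, so this count rests on A and B. Over all 17168 genes, leaving out 1 library at a time gave 0 to 368 calls in this comparison. At most 368 genes were thus called without library C. Without libraries A and B the dose is left with library C alone, whose spread is assumed to be that of the other groups, and the log2 fold change was -1.33 for Dnah5 and -2.66 for Dnah3.

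Marker genes moved with these libraries. Foxj1, the master factor of motile ciliogenesis, had 78.0, 64.0 and 0.360 CPM at dose 2, against 2.42, 1.22 and 0.863 CPM in F1 controls. The 16 multiciliated cell markers in the tables summed to 298, 268 and 32.7 CPM at dose 2, against 63.8, 40.9 and 45.3 CPM in controls, and to 22.3 to 63.8 CPM in the 25 other libraries. In libraries A and B, 15 of the 16 were above all 25 others, as were 6 of 10 oviduct epithelium markers. Mlf1 of the first list and Emx2, Cldn4, Krt7 and Wfdc2 of the second were not. Ovgp1, by which these libraries were set apart above, is among the 6. The share of all genes above the others in both libraries was not counted. The oviduct markers summed to 1151, 383 and 40.2 CPM at dose 2, against 219, 48.7 and 68.3 CPM in controls. Of these sums, Ovgp1 alone made up 1013, 299 and 3.38 CPM at dose 2, and 146, 7.55 and 4.87 CPM in controls. No marker of the oviduct list was at 0 in these 6 libraries, and the part of such tissue in the chains' values was not tested.

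The libraries next highest in Ovgp1 differed in these chains. F1 control library A had 146 CPM of Ovgp1, against 7.55 and 4.87 CPM in the other F1 controls, yet its Dnah5 was 0.373 CPM and its Dnah6 0.878 CPM, within the range of the other libraries. Its Foxj1 (2.42 CPM) and its multiciliated marker sum (63.8 CPM) were the highest of the 25. Library B of the F2 father dose 1 group had 17.5 CPM of Ovgp1 and 2.21 CPM of Foxj1, each the second highest of the 25. Its multiciliated marker sum was not raised, at 39.3 CPM against a median of 40.4 CPM over the 25. In that library Dnah5 (2.09 CPM), Dnah6 (1.75 CPM), Dnah12 (1.07 CPM) and Dnah3 (0.730 CPM) were each the highest of the 25 libraries.

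**Figure D3:**
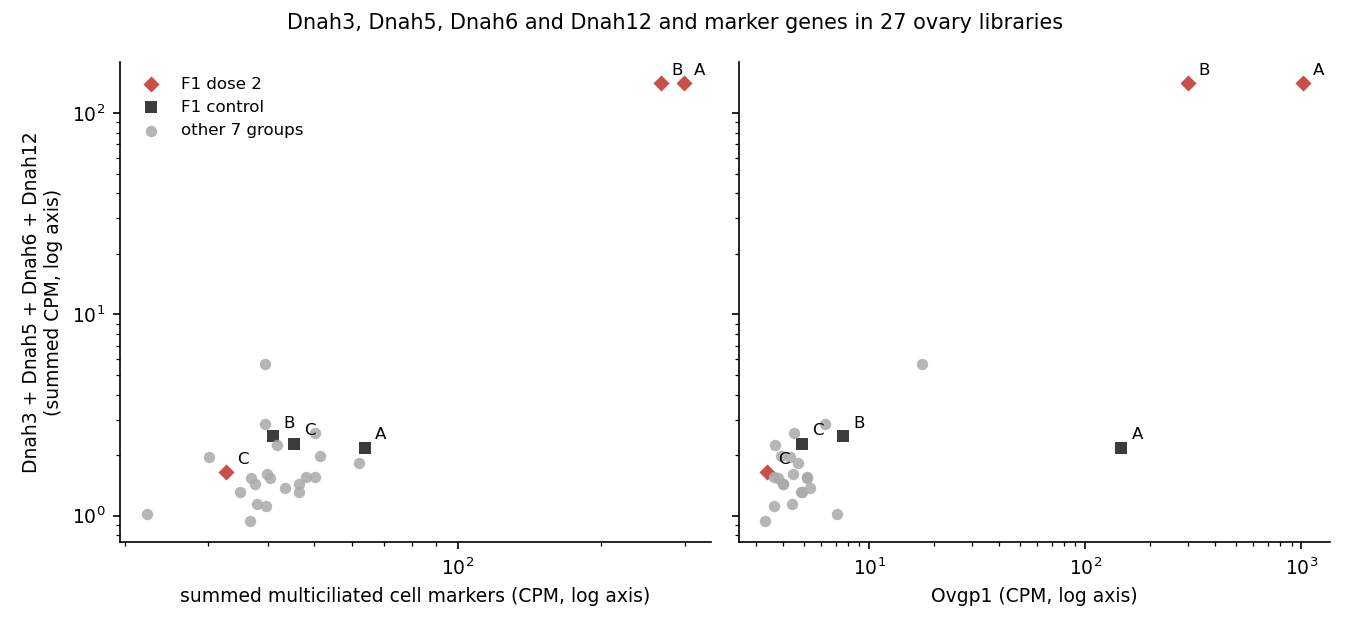
Summed CPM of Dnah3, Dnah5, Dnah6 and Dnah12 (log axis) against summed multiciliated cell markers (left) and Ovgp1 (right), both in CPM on log axes, in the 27 ovary libraries. F1 dose 2 libraries A and B sit at 140.8 and 140.7 CPM of the 4 chains, against 0.945 to 5.64 CPM in the other 25, and F1 control A has high Ovgp1 without high chains.

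Among other genes of the cilium machinery, 0 were called in any list in the ovary at dose 2. The median log2 fold change was 3.02 over 15 tested multiciliated cell markers, 2.37 over 27 other axoneme genes, 1.85 over 14 intermediate, light and docking chains and 0.77 over 15 assembly factors, beside 1.86 over the 9 chains and 0.02 over all genes. At an unadjusted p under 0.05 there were 13, 18, 12 and 11 of them in that order, beside 12.0% of all genes. These medians rest on libraries A and B. The other axoneme genes summed to 434, 401 and 76.6 CPM at dose 2, against 105, 82.4 and 89.7 CPM in controls, so library C lay below all controls. The assembly factors summed to 285, 296 and 251 CPM at dose 2, against 316, 279 and 299.9 CPM in controls, which overlap.

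Likeness over the 27 ovary libraries is a description that leans on libraries A and B. Dnah5 was most like Cdhr3 (Pearson r = 0.954 of log2 CPM) and Ubxn10 (0.952), then Dnah6 (0.949). Dnah6 was most like Ttc21a (0.957), Dnah3 like Ttc21a (0.933) and Foxj1 (0.929), and Dnah12 like Ccdc40 (0.935). Dnah1 was most like Drc3 (0.932) and Dnah10 (0.921). Dnah2 instead was most like Oca2 (0.888), Crhr1 (0.883) and Ephx1 (0.879), Dnah9 like Tmem67 (0.845) and Dnah17 like Nos1 (0.787). Among Dnah3, Dnah5, Dnah6 and Dnah12 the pairwise r ran from 0.873 to 0.949 in all 27 libraries, and from 0.337 to 0.627 in the 25 without A and B.

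The remaining ovary comparisons called 0 chains in edgeR and in DESeq2. For ovary F1 dose 1 against control 0 of 9 chains were called (0 at an unadjusted p under 0.05; 0% of 17168 genes). There Dnah5 had 0.148, 0.216 and 0.205 CPM at dose 1, against 0.373, 0.768 and 0.527 CPM in controls, and Dnah3 had 0, 0.0862 and 0.0513 CPM against 0.373, 0.318 and 0.288 CPM. Both chains lay below all controls, as 5.03% of genes did, but on at most 10 and 4 counts per library at dose 1, and neither passed (log2 -1.56 ± 1.56 and -2.93 ± 2.01). These SE come from 1 fit of the 9 F1 ovary libraries, so the spread among dose 2 libraries A, B and C enters them. In F2, 8 chains passed the expression filter and Dnah3 did not. The share of genes called was 0% for mother dose 1, 0% for mother dose 2, 0% for father dose 1, 0.00573% for father dose 2 and 0.688% for both parents dose 2. At an unadjusted p under 0.05 there were 0, 1, 1, 0 and 2 chains in that order, beside 9.20%, 5.83%, 9.63%, 15.8% and 24.5% of genes, so the 2 of 8 chains with both parents exposed are near the background. Dnah17 in the both-parents group came nearest, with 2.66, 2.92 and 1.88 CPM in those ovaries, against 3.46, 4.30 and 3.40 CPM with control parents (log2 -0.58 ± 0.23, adjusted p = 0.1375). Its groups did not overlap, as for 12.9% of genes, and Dnah10 was below all controls as well (log2 -0.48 ± 0.20). Dnah17 was also below all controls with a father at dose 1, at 2.83, 2.70 and 2.69 CPM (log2 -0.44 ± 0.23; 7.34% of genes). With a father at dose 2, Dnah1 was above all controls (10.3% of genes) and Dnah9 below them (10.5% of genes). Ovaries of F2 control parents against F1 controls gave 0 called chains of 9 (0 at an unadjusted p under 0.05; 0% of 17754 genes), and Dnah3 lay below all F1 controls, as 5.33% of genes did.

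In F1 testis 6 chains lay above all controls at dose 2, and none passed the test. Dnah17 had 816, 845 and 737 CPM at dose 2, against 626, 623 and 581 CPM in controls, without overlap (log2 0.39 ± 0.12, edgeR adjusted p = 0.1061). Dnah2 had 388, 398 and 348 CPM at dose 2, against 289, 299 and 259 CPM in controls (log2 0.42 ± 0.13, adjusted p = 0.1021). An outer arm chain and an inner arm chain thus lay above all controls by a similar ratio. Dnah6, with 200.2, 205.5 and 189.9 CPM at dose 2 against 159.7, 165.7 and 145.7 CPM in controls, had the smallest adjusted p (0.09943; log2 0.34 ± 0.10). Dnah10, Dnah1 and Dnah3 were likewise apart, at log2 0.41 ± 0.13, 0.34 ± 0.12 and 0.40 ± 0.18. Dnah12 overlapped its controls (190.8, 186.7 and 172.1 CPM at dose 2, against 172.3, 160.8 and 167.3 CPM in controls), as did Dnah9 and Dnah5. Thus 6 of 9 chains lay above all controls, as 17.9% of genes did, and 0 of 9 were called, as 2.21% of genes were. At an unadjusted p under 0.05 there were 5 chains, beside 23.6% of genes, and DESeq2 called 4 (Dnah17, Dnah2, Dnah10 and Dnah6), beside 10.1% of genes.

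Other values moved in these testes. Elongating spermatid markers summed to 22140, 21930 and 23770 CPM at dose 2, against 26760, 24340 and 31460 CPM in controls, and round spermatid markers to 2092, 2160 and 2429 CPM against 2606, 2472 and 2869 CPM. Both sums were lower without overlap, while 6 of the chains, which act in the tails of these cells, lay above all controls; their part in the result was not tested. Of 32 other axoneme genes 1 rose, Cfap65 (log2 0.45 ± 0.10), and 0 fell. Of 6 further axonemal heavy chains 1 fell, Dnah8, the gamma partner of the sperm outer arm (log2 -0.55 ± 0.10), and 0 rose. List medians were 0.03 for the axoneme genes, 0.21 for the further heavy chains and 0.34 for the 9 chains, beside 0.01 over all genes.

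At dose 1 the chains overlapped their controls. Dnah17 had 474, 702 and 632 CPM at dose 1, against 626, 623 and 581 CPM in controls, so library A was the lowest of all 27 testis libraries and the groups overlapped. Its log2 fold change was -0.01 ± 0.12, and for the 9 chains the values ran from -0.20 to 0.11. None of the 9 passed edgeR (0 at an unadjusted p under 0.05; DESeq2 called 0), beside 0.0317% of genes. Without library A of dose 1, Dnah3 was called at a log2 of 0.33, against 0.11 with it. Dnah8 fell at dose 1 too, by 0.88 on the log2 scale (edgeR adjusted p = 0.008343).

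**Figure D4:**
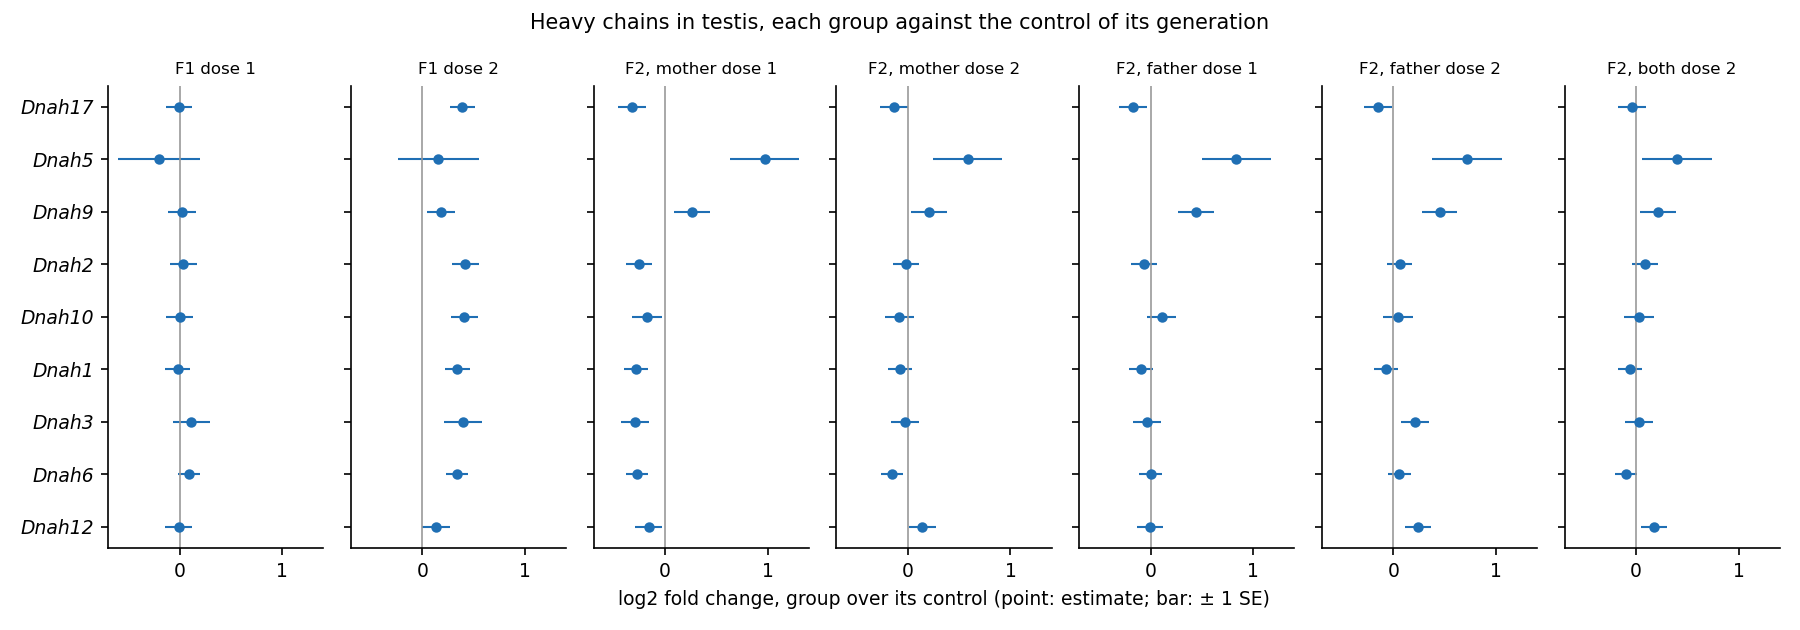
Log2 fold change of each chain in testis (point) with 1 SE (bar) for F1 dose 1 and dose 2 and the 5 F2 crosses, each over the control of its generation. Values at F1 dose 2 all lie above 0 (0.13 to 0.42), and Dnah5 and Dnah9 lie above 0 in all 5 F2 crosses.

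Across the F2 crosses 0 chains were called in edgeR. Percent called over 19241 genes was 0.816% for mother dose 1, 1.70% for mother dose 2, 3.97% for father dose 1, 5.33% for father dose 2 and 4.59% for both parents dose 2. Chains at an unadjusted p under 0.05 numbered 5, 0, 2, 1 and 0 in that order, beside 17.9%, 18.5%, 18.4%, 24.3% and 22.1% of genes, so the counts of 2 and 1 are near or below the background. DESeq2 called 1, 0, 0, 0 and 0. The 5 crosses share their control parents, and both F1 doses share the F1 controls, so values within a generation are not independent.

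Dnah5 had the largest log2 fold change of the 9 chains in each of the 5 crosses. It had 5.44, 13.9 and 6.16 CPM with a mother at dose 1 and 8.98, 7.39 and 6.63 CPM with a father at dose 1, against 3.98, 6.40 and 2.47 CPM with control parents. Only the father dose 1 libraries all lay above the controls, as 11.5% of genes did. The log2 fold changes over control parents were 0.97 ± 0.34 for mother dose 1, 0.58 ± 0.34 for mother dose 2, 0.83 ± 0.34 for father dose 1, 0.72 ± 0.34 for father dose 2 and 0.40 ± 0.34 for both parents, with adjusted p from 0.1662 to 0.5156. Without control library B, the highest of the controls, Dnah5 was called in 3 crosses, at 1.39 for mother dose 1, 1.26 for father dose 1 and 1.14 for father dose 2. The number of genes called also moved when 1 library at a time was left out. It ran over 27 to 785, 224 to 1595 and 75 to 3122 of 19241 genes in these crosses, in that order. The single DESeq2 call was also Dnah5, in the mother dose 1 cross. F1 control testes had 6.76, 4.30 and 10.5 CPM, and 14 of the 15 libraries from exposed parents lay within that range.

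Dnah9 was next. Its libraries had 15.6, 12.8 and 11.9 CPM with a father at dose 2, against 9.33, 8.84 and 11.1 CPM with control parents, without overlap (log2 0.45 ± 0.17, adjusted p = 0.1193; 15.4% of genes lay above all controls). With a father at dose 1 it had 9.67, 15.9 and 14.3 CPM, and the low library A overlapped the controls (log2 0.44 ± 0.17). It was called in that cross without library A, at 0.63. With a mother at dose 1, Dnah3 had 195.8, 193.5 and 196.7 CPM, against 246.6, 210.8 and 255.5 CPM with control parents (log2 -0.30 ± 0.14, adjusted p = 0.2665). Dnah2, Dnah3 and Dnah6 lay below all controls there, as 11.8% of genes did, and the other abundant chains overlapped their controls. In the father dose 2 cross, Dnah3 and Dnah12 lay above all controls together with Dnah9.

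Between generations 1 chain was called. Dnah6 had 199.7, 180.4 and 217.1 CPM in testes of F2 control parents, against 159.7, 165.7 and 145.7 CPM in F1 controls, without overlap, and Dnah2 also lay above all F1 controls, as 16.9% of genes did. The log2 fold change of Dnah6 was 0.34 ± 0.11 (edgeR adjusted p = 0.04575), and DESeq2 called it too. This is 1 of 9 chains beside 14.5% of 19467 genes. The call was lost with the replicate letter as a block and without libraries A or C of either group. With no age assigned to F2, any age difference cannot be told apart from generation.

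Whether testis and ovary answered a dose differently was tested in joint fits of both tissues. None of the 9 chains passed in any of the 7 contrasts. Few genes passed in F1, 2 of 20351 at dose 1 and 3 at dose 2, and 23 to 948 of 20661 passed in the F2 contrasts. The testis effect minus the ovary effect of F1 dose 2 was -5.73 ± 1.44 for Dnah5, -4.77 ± 1.11 for Dnah6 and -4.38 ± 1.11 for Dnah12 on the log2 scale (adjusted p = 0.1892 each), values that rest on ovary libraries A and B.

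In testis the abundant chains varied together from library to library. Among Dnah17, Dnah2, Dnah10, Dnah1, Dnah3, Dnah6 and Dnah12 the 21 pairwise Pearson r ran from 0.682 to 0.944 over 27 libraries, while Dnah5 had r of -0.23 to -0.01 with these 7 and 0.410 with Dnah9. Their most similar genes came from several families. Dnah17 was most like Dync1h1 (r = 0.944), Dnah2 like Hydin (0.969), which encodes a central pair protein, and Mdn1 (0.964), Dnah1 like Sec16a (0.969), Dnah10 like Dst (0.954), Dnah3 like Stard9 (0.956) and Dnah12 like Trip12 (0.951). Dnah6 was most like Hmbox1 (0.920). Dnah5 and Dnah9 had looser matches, Yipf7 (0.793) and Mark3 (0.744).

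A level of long genes was therefore set beside the chains, after the likeness had been seen. It is the median deviation in log2 CPM of 85 other genes with at least 10 kb of coding length from their means over the testis libraries. Dynein heavy chain genes were left out of the 85, but no other gene was left out for its likeness to a chain. The median of the 7 abundant chains followed it with Pearson r = 0.963 and Spearman rho = 0.951 over 27 libraries. Because it was built after the likeness in these same libraries, its relation to the chains is a description and no p is given. Leaving out the 2 libraries farthest from its median, F1 dose 1 A and both parents dose 2 A, r was 0.942. By chain, r was 0.958 for Dnah2, 0.945 for Dnah3, 0.912 for Dnah1, 0.886 for Dnah6, 0.884 for Dnah12, 0.858 for Dnah17 and 0.847 for Dnah10. For Dnah9 it was 0.256 and for Dnah5 -0.06.

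The level of long genes also differed between the compared groups. It was 0.22, 0.25 and 0.03 at F1 dose 2, against -0.10, -0.09 and -0.22 in F1 controls, and 0.07, -0.02 and 0.09 in F2 control parents, which also lay above F1 controls. With a mother at dose 1 it was -0.09, -0.18 and -0.06, below all control parents. With a father at dose 2 it was 0.23, 0.13 and 0.13, above all control parents. In these 4 comparisons the chains that lay apart from their controls did so in the direction of this level, although with a father at dose 2 Dnah17 (log2 -0.15 ± 0.14) and Dnah1 (-0.07 ± 0.12) had the other sign. These libraries are among those in which the chains were seen to follow this level, so the shared direction is no separate result. The part of gene length in the differences from controls was not tested. Dnah5 and Dnah9, whose coding sequences are also over 10 kb, did not follow this level. The same median over 4419 genes with at most 1 kb of coding length was -0.08, -0.07 and 0.01 at F1 dose 2. In F1 controls it was 0.09, 0.07 and 0.16, so short genes lay below all controls where long genes lay above. The spermatid marker sums, also lower at F1 dose 2, were not tested against coding length.

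**Figure D5:**
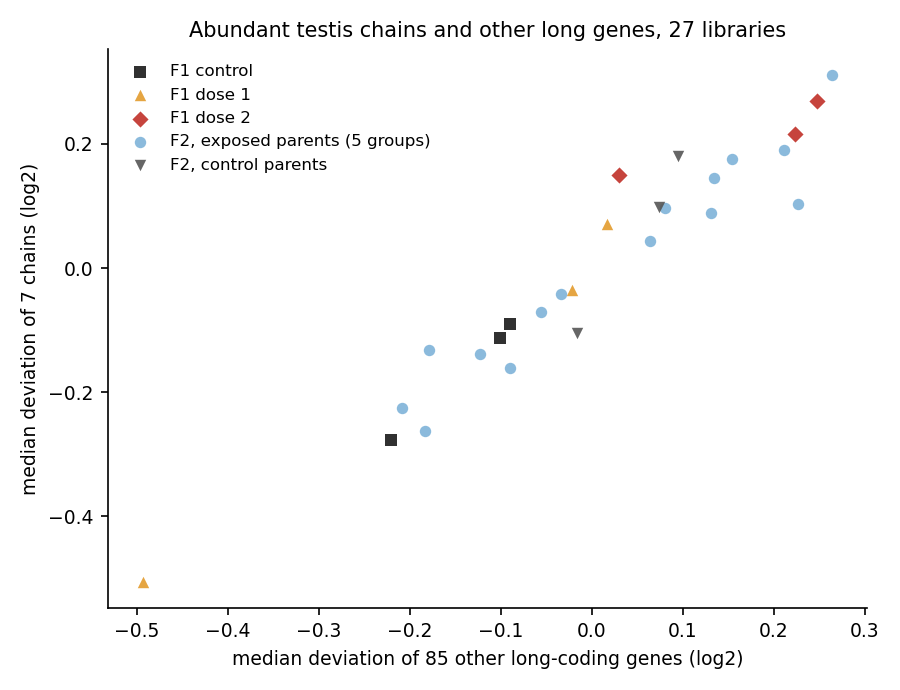
Median deviation of 7 abundant chains (log2) against that of 85 other genes with at least 10 kb of coding length (log2), 1 point for each of 27 testis libraries, marked by group. The points follow a line (r = 0.963), with F1 dose 1 A at the low end and both parents dose 2 A at the high end.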

How the data were processed

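The 54 libraries hold mRNA of mouse testis or ovary. TRIZOL extraction and a stranded mRNA ligation kit are named per the labels' protocols. The submitters' processing notes name build mm39, featureCounts 2.0.3, SAMtools 1.13, Bowtie2 2.4.5 and TopHat2 2.1.1, without their roles. How counting treated strand, and with which annotation, is not given in the sources used here. The authors deposited raw whole-number counts per gene, 1 table of 26264 rows for each tissue. Of these rows, 133 carry a symbol but no gene ID and were kept. In the F2 column codes the male parent was read first, which the headers do not state.

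The tests were run here in R 4.3.3. edgeR 4.0.16 (quasi-likelihood, robust, TMM factors, a minimum count of 10 in its expression filter) was fitted over all genes, with Benjamini-Hochberg adjustment over all genes tested and a threshold of 0.05. Separate fits were made in each tissue for F1 (9 libraries), F2 (18) and both generations together (27), and across tissues for the 12 control libraries. DESeq2 1.42.0 was an alternative. Levels are CPM (counts scaled to TMM-adjusted library size), compared between genes per kb of the longest coding sequence in GENCODE vM21. Fold changes come from the fits, and log2 CPM used for correlations had a prior count of 2.

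The steps were tested on simulated counts. Of simulated 2-fold changes, 62.7% were recovered in testis F1 dose 2 and 76.1% in testis F2 both parents. In ovary it was 32.8% for F1 dose 2 and 56.7% for F2 both parents. For 1.5-fold changes the shares were 47.8%, 47.8%, 1.49% and 19.4% in that order. Small changes could thus be missed, above all in ovary. The smallest chi-square per gene between replicates was 3.17, so no replicates agreed within sampling noise. The largest were 263 and 224, for ovary F1 control library A against libraries C and B of its group. Next came 127, for ovary F1 dose 2 A against C. Control library A enters both ovary F1 dose comparisons. Same-letter libraries deviated together in ovary F1 dose 1 against control only, with correlations of 0.188, 0.201 and 0.35. The main tests did not pair libraries by letter, since the labels do not say what a letter marks. The chains, gene lists and marker lists were chosen with earlier results of these data known. Beside the 9 chains, the text names up to 4 called genes of a list, marker genes, and the 3 genes most correlated with a chain. The interaction tests, the long-gene and short-gene values and the promoter motif were chosen after seeing the data.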

Additional observations from a re-analysis of the deposited data

How the results depend on the processing

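DESeq2 called 5 chains in ovary F1 dose 2, 4 in testis F1 dose 2 and 1 in testis mother dose 1, each against control, where edgeR called 0. With the replicate letter as a block, 0 chains were called in testis F2 control parents against F1 controls, in place of 1, and the block changed no other count of chains; these letters are not shown to pair the samples. Other counts of called chains were unchanged by RLE size factors, no low-count filter and library size only, where run. Leaving out 1 library at a time gave 0 to 6 called chains in ovary F1 dose 2 (6 without library C), 0 to 1 in testis F1 dose 1, mother dose 1, father dose 1 and father dose 2, and 0 to 1 in F2 control parents against F1 controls; the cause was not tested. Over all genes, the same leaving out gave 0 to 368 calls in ovary F1 dose 2 and 3 to 315 in testis F1 dose 1. It gave 27 to 785 in testis mother dose 1, 224 to 1595 in father dose 1 and 75 to 3122 in father dose 2. Testes of F2 control parents against F1 controls had 574 to 3185. All 9 chains were called between tissues in every alternative run. Over all genes, DESeq2 called more than edgeR in testis: 137 against 6 for F1 dose 1, 1917 against 419 for F1 dose 2, 650 against 157 for mother dose 1, 956 against 327 for mother dose 2, 1282 against 764 for father dose 1, 1879 against 1026 for father dose 2 and 1567 against 883 for both parents. In ovary it called 78 and 314 for F1 dose 1 and dose 2, 126, 14 and 83 for mother dose 1, mother dose 2 and father dose 1, and 124 between generations, each against 0 in edgeR, 370 against 1 for father dose 2 and 1859 against 120 for both parents. The block gave 2 genes in ovary F1 dose 2 and 167 in testis F1 dose 2, and no filter gave 47 for both parents in ovary and 13 for testis F1 dose 1.

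Ovary F1 dose 2 fold changes of 7 chains changed sign without libraries A and B together, a setting chosen after seeing the data, at a log2 of -1.33 for Dnah5, -2.66 for Dnah3, -0.34 for Dnah12, -0.19 for Dnah1, -0.12 for Dnah10, -0.11 for Dnah2 and 0.11 for Dnah17. Dnah6 and Dnah9 kept their sign. This leaves 1 library at the dose, whose spread is assumed to be that of the other groups. Leaving out 1 library at a time there moved Dnah17 over -0.43 to 0.16 and Dnah2 over -0.12 to 0.32, with Dnah2 at -0.09 without control A. In testis F1 dose 2, Dnah5 ranged over -0.11 to 0.54, with -0.11 without control B and -0.02 without dose 2 C. Of 54 genes named as most like a chain, 18 were named under Spearman correlation too. The relation of chains to oviduct markers was not run as a correlation, because the ovary libraries fall into separate clusters. Chains with few ovarian counts, Dnah3 first, are limited by depth.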
